A study of Mus musculus with 6 samples.

Results

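Cirbp and Rbm3, the cold-inducible RNA-binding protein genes, were represented by 3 probe sets among the 45101 of the array, 1 for Cirbp (1416332_at) and 2 for Rbm3 (1422660_at and 1429169_at). They are 2 of the 19324 genes that the platform's probe table names. Members were every probe set that this table maps to either gene; both Rbm3 probe sets also carry the name of the pseudogene Rbm3-ps, so gene and pseudogene cannot be told apart. All 3 probe sets passed the filter on dim signals. The genes were selected on the difference between rotated and static arrays in these same data, so their differences are given as a description, with no test.

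The cells were 2T3, mouse pre-osteoblasts grown from skull bone of a transgenic animal and immortalised by a viral T antigen under the Bmp2 promoter, so all values come from 1 clone. Total RNA was hybridised after 3 days of static culture (3 arrays) or of rotation (3 arrays) in the rotating wall vessel, a fluid-filled chamber that turns about a horizontal axis and models microgravity on the ground. No other treatment is named in the labels. Titles were followed for the groups, although for static 2 and static 3 the source label speaks of simulated microgravity; the letter R of the other titles was taken as rotated. Whether the arrays come from separate cultures is not stated, so the spread behind each error and p-value may be only technical. No temperature of either culture is given in the labels.

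Cirbp and Rbm3 encode small RNA-binding proteins built alike, with an RNA recognition motif followed by a glycine-rich tail. In cultured mammalian cells their transcripts rise when the temperature drops mildly and fall when it is raised, which is the reverse of the heat shock genes. The proteins bind many mRNAs and affect their stability, their translation and the choice of their 3' ends, and CIRBP is also known for binding the mRNA of the clock gene Clock.

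The promoter of Cirbp is shown because a short element in it is reported to respond to mild cold. RefSeq's table (GRCm38.p6) matched 1 of the 2 genes, Cirbp, with 2 start sites; Rbm3 was not matched. Each window runs from 250 bases before a start to 50 bases after it on the plus strand, at chr10:80167589-80167888 and chr10:80167921-80168220. Capitals mark the reported mild cold-responsive element (TCCCCGCC), the GC box (GGGCGG) and the CCAAT box (CCAAT), on either strand.
Cirbp start 1: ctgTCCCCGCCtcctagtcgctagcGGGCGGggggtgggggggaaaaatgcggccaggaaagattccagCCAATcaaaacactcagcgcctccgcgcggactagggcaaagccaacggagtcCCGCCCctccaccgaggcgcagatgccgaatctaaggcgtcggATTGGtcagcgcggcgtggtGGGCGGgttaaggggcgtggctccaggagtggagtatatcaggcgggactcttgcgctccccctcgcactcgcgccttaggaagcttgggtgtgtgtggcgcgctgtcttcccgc
Cirbp start 2: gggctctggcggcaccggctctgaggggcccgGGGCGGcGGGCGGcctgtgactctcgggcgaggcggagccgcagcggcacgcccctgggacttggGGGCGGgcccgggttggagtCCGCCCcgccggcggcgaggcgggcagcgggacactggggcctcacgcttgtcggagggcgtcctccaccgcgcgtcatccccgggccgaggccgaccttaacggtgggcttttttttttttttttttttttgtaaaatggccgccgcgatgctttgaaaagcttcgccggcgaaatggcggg
The first window holds the cold-responsive letters once, from base -247 to base -240 counted from the start, and 5.38% of the 32851 promoters of this length hold them on either strand. It also holds 3 GC boxes, found in 35.7% of promoters, and 2 CCAAT boxes, found in 37.4%. The second window holds 4 GC boxes and neither of the other elements. None of these matches overlapped another. The GC content was 65.7% and 70.0% in the 2 windows against a median of 52.7% over all promoters. The heat shock element (GAANNTTCNNGAA, 0.603% of promoters), the E-box (CACGTG, 7.15%) and the TATA box (TATAAA, 13.6%) had no match in these windows, on either strand. A match is a description of the letters and not evidence of binding.

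Cirbp signal was lower on every rotated array than on every static array. The deposited intensity (a linear brightness, scaled by the authors to the same trimmed mean on every array) was 725.3, 608.9 and 436.4 on static 1, 2 and 3, and 66.9, 157.3 and 99.6 on rotated 1, 2 and 3. The highest rotated value thus lay well below the lowest static one, by a factor of 2.77. The group means were 590.2 ± 145.4 and 107.9 ± 45.8 (SD, n = 3 each), a ratio of 5.47. After quantile normalization, as log2(value + 16.6), Cirbp differed by -2.26 ± 0.37 (log2 rotated over static ± limma's moderated SE, n = 3 per group), which is 4.79-fold lower. The added offset understates the change at such low signals, and with array weights it was 3.18-fold lower. In bulk RNA fewer cells of a type and less RNA per cell cannot be told apart. Static 3 was the lowest static array and rotated 1 the lowest rotated array. Of the 27022 tested probe sets 11, Cirbp included, had a difference this low. For Rbm3 the counts at or below its difference were 168 (1422660_at) and 26522 (1429169_at). The genes were chosen on this difference, so nothing is read from these ranks.

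The 2 probe sets of Rbm3 went in opposite directions. The brighter of them, 1422660_at, read 16446.9, 15734.2 and 13440 on static 1, 2 and 3 and 4554.3, 7272 and 7529 on rotated 1, 2 and 3. All rotated values were below all static values, and the static arrays varied little, with a coefficient of variation of 10.3% against 25.5% in the rotated ones. The deposited means were 15207 ± 1571 and 6452 ± 1648 (SD, n = 3 each), a ratio of 2.36. The normalized difference was -1.36 ± 0.23 (log2 ± SE, n = 3 per group), 2.57-fold lower in the rotated samples. With median centring it was 2.19-fold lower. When each array was left out in turn it ran from 2.15-fold (without rotated 1) to 2.89-fold (without rotated 3) lower.

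The dimmer Rbm3 probe set, 1429169_at, read 259.6, 325.6 and 221.8 on static 1, 2 and 3 and 752.7, 441.2 and 432.2 on rotated 1, 2 and 3. Here all rotated values stood above all static values. The means were 269.0 ± 52.5 and 542.0 ± 182.5 (SD, n = 3 each) and the normalized difference was 1.04 ± 0.32 (log2 ± SE). The log2 ratio of the dimmer to the brighter Rbm3 probe set within an array, which no scaling factor of the array touches, was -5.99, -5.59 and -5.92 on static 1, 2 and 3. It was -2.60, -4.04 and -4.12 on rotated 1, 2 and 3. The mean ratio moved by 2.25 (log2, from -5.83 ± 0.21 to -3.59 ± 0.86, SD, n = 3 each), which shows unequal change of the 2 signals and not which of them follows the mRNA of Rbm3. The parts of the transcript that the 2 probe sets read were not analysed here.

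**Figure D1:**
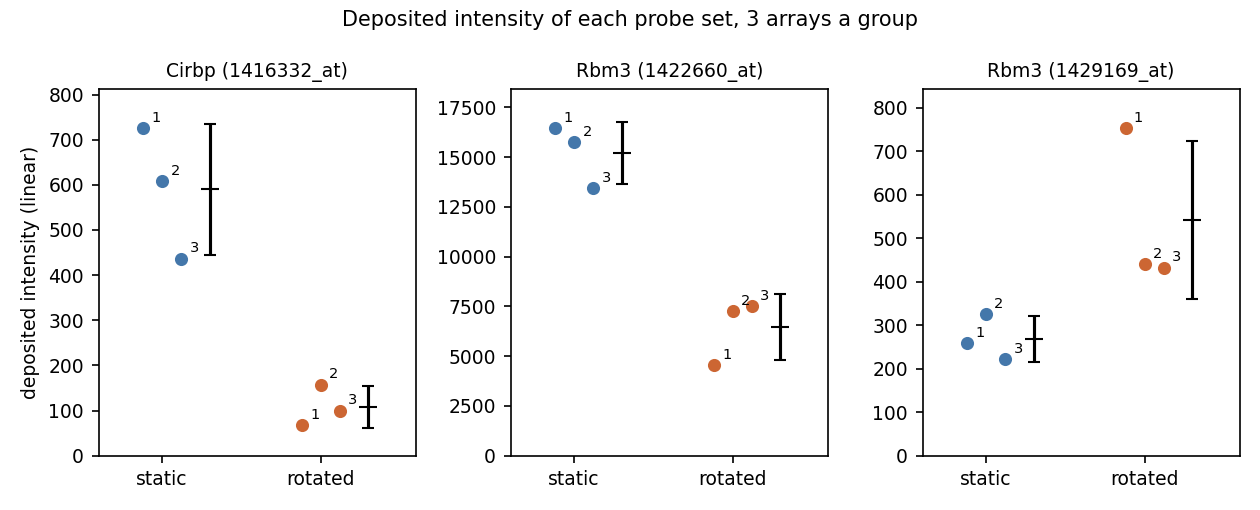
Deposited intensity (linear axis from 0, a separate scale for each probe set) on the static and rotated arrays; points are arrays labelled by replicate number, and bars are the mean ± SD of 3 arrays. Cirbp and the brighter Rbm3 probe set lie lower on all rotated arrays and the dimmer Rbm3 probe set higher, with no overlap of groups in any panel.

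Values of the 2 groups did not overlap in all 3 probe sets, 2 with the rotated arrays below and 1 with them above. Over all tested probe sets 7.29% had every rotated value below every static value and 7.82% above. Among the 6007 genes with at least 2 tested probe sets of 1 symbol, 1.58% had, like Rbm3, a probe set with all rotated values below and another with all rotated values above. Since the genes were chosen from this contrast, nothing is read from these counts. After Benjamini-Hochberg adjustment in limma 0% of the 27022 probe sets passed at 0.05 (smallest adjusted p 0.300), while 8.25% had an unadjusted p under 0.05.

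Rotated 1 stood furthest from the static arrays in all 3 probe sets. Its log2 deviations from the static mean were -2.91 for Cirbp, -1.89 for the brighter Rbm3 probe set and 1.64 for the dimmer Rbm3 probe set. On rotated 2 and rotated 3 Cirbp deviated by -1.71 and -2.17, the brighter Rbm3 probe set by -1.17 and -1.03, and the dimmer Rbm3 probe set by 0.78 and 0.69. On both of these arrays Cirbp was further below its static mean than the brighter Rbm3 probe set. Among the static arrays, static 1 was the highest for Cirbp and for the brighter Rbm3 probe set and static 3 the lowest.

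**Figure D2:**
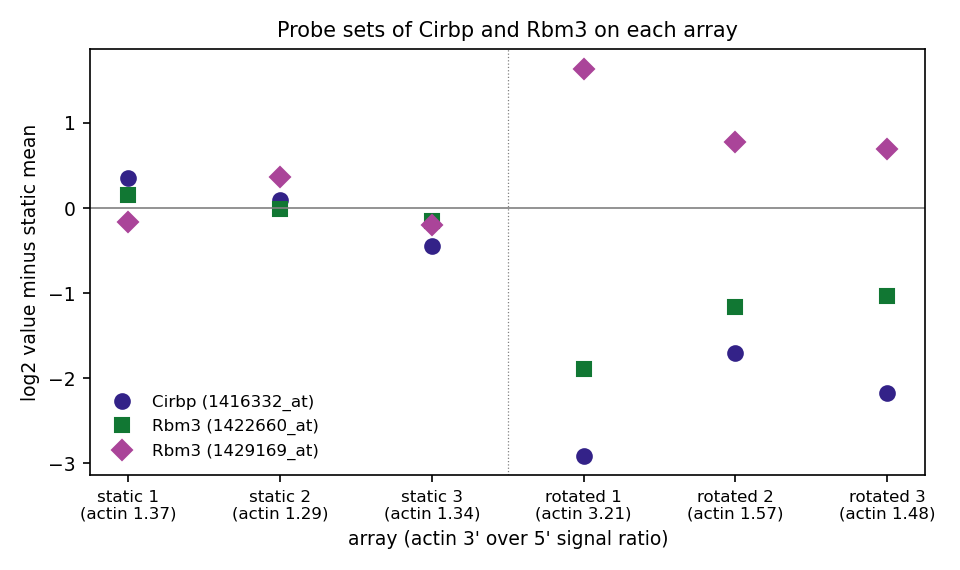
Log2 normalized value minus the static mean of the same probe set on each array, with the array's actin 3' over 5' signal ratio under its name. Rotated 1, with an actin ratio of 3.21, lies furthest from the static arrays in all 3 probe sets.

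The arrays differed in quality. Rotated 1 had an actin 3' over 5' signal ratio of 3.21, against 1.29 to 1.57 on the other arrays, which can be a sign of shorter RNA or cDNA. The same ratio for the transferrin receptor was 8.92 on rotated 1, against 1.62 to 3.71 elsewhere. That for Gapdh did not set rotated 1 apart (0.875, with 0.867 on static 1 and 0.748 to 0.792 on the rest). The mean correlation of rotated 1 with the other arrays (0.914) was the lowest, with static 1 close to it (0.918). Static 1 had a 10th percentile of intensity of 22.1 against 4.5 to 7.2 elsewhere. Without rotated 1 the differences were -1.94 for Cirbp, -1.10 for the brighter Rbm3 probe set and 0.73 for the dimmer Rbm3 probe set. Without static 1 and rotated 1 together they were -1.76, -1.02 and 0.65. Of 8 osteoblast lineage markers with a probe set of 1 symbol, 8 passed the filter on dim signals. Runx2, also listed, had no probe set of its symbol alone. Alpl and Ibsp were dim, with median intensities of 76.5 and 61.9. The summed intensity of the 8, nearly all of it Sparc, Col1a2, Cdh11 and Col1a1, was 75530.8 to 81849.9 in static arrays. It ran from 56364.9 to 71534.4 in the rotated ones. For macrophages 4 of 5 markers passed the filter and for endothelial cells 1 of 4; The macrophage markers that passed were Cd14, Csf1r, Adgre1 and Cd68, with median intensities of 2922, 221.1, 109.1 and 63.5, and Ptprc (24.9) did not. Of the endothelial markers Kdr (60) passed, and Pecam1 (7.2), Cdh5 (48.4) and Tek (20.8) did not. Of adipocyte, muscle and epithelial markers 1 of 3, 2 of 4 and 2 of 4 passed. The summed intensity of the adipocyte markers, nearly all of it Fabp4, was 2973.4 to 4730.7 in static and 2471.8 to 2919.9 in rotated arrays, with Adipoq and Cidec below the filter. That of the muscle markers was 201.7 to 233.7 and 162.0 to 180.7, with Myog and Myod1 below the filter, and for the other types the ranges of the groups overlapped. The part of these markers and of RNA quality in the Cirbp and Rbm3 differences was not tested.

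**Figure D3:**
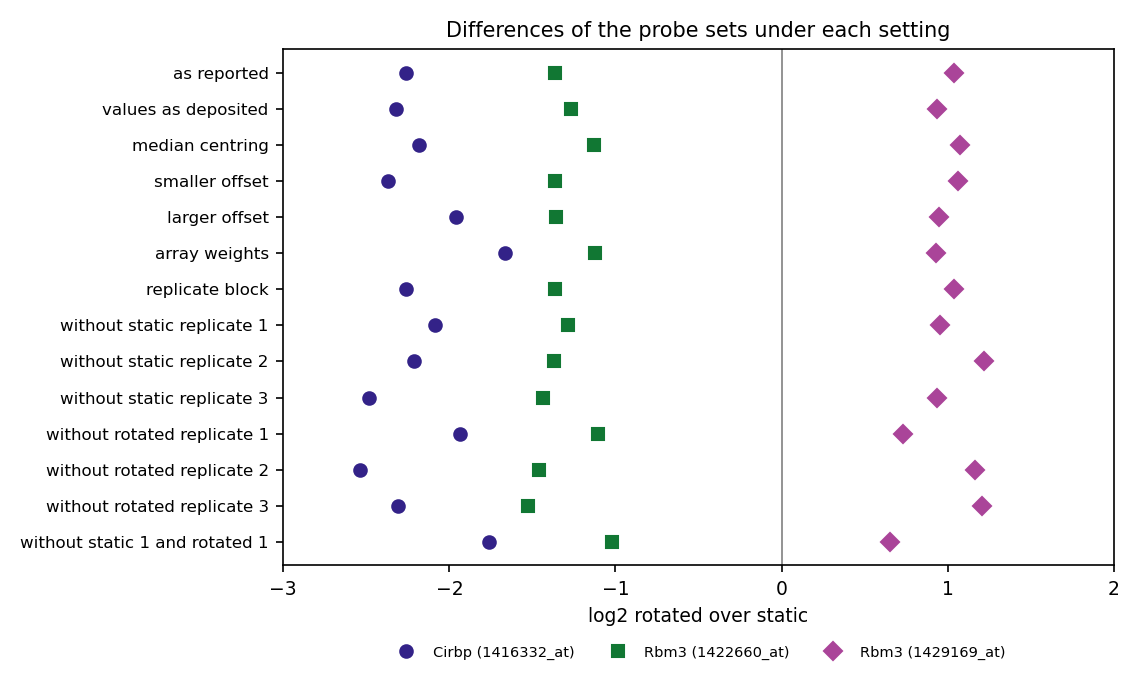
Log2 difference (rotated over static) of each probe set under the settings run for single probe sets. The reported setting is at the top, and both outlying arrays are left out at the bottom. The mean over both Rbm3 probe sets (-0.16) is not drawn. Cirbp runs from -2.54 to -1.67 and the brighter Rbm3 probe set from -1.53 to -1.02. The dimmer Rbm3 probe set runs from 0.65 to 1.22. No point crosses 0, which leaving out or weighting arrays could not change, since the groups do not overlap.

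Genes related to Cirbp and Rbm3 were read from 7 lists, each gene through its brightest probe set. With a low bar of an unadjusted p under 0.05 in limma, 4.49% of all 12554 measured genes were higher in the rotated samples and 3.74% lower, and the median difference over all genes was 0.03 (log2). These were 564 and 470 genes, against 423 and 175 with median centring. No gene of any list passed after adjustment, so values are given as measured differences.

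The other RNA-binding motif proteins named RBM lay on both sides of 0. Of 36 measured genes 22 were higher and 14 lower in value, 2 higher and 0 lower at the unadjusted threshold, with a median of 0.06 (log2) and a range from -0.69 to 0.85. Rbm15, a factor of RNA methylation, differed by 0.85 ± 0.35 (adjusted p 0.603 in limma). Rbm26 differed by 0.70 ± 0.30, while 1 of the 3 further probe sets was lower, and the splicing factor Rbm4b by -0.69 ± 0.37, while both further probe sets were higher. In Rbm15 and Rbm26 rotated 1 was the highest array. Without rotated 1, 0 of the 36 genes were past the unadjusted threshold. The balance depended on the scaling: with median centring 31 were higher and 5 lower in value, with a median of 0.19 and 0 past the threshold.

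Of the cold shock domain proteins, which bind RNA by another fold and take their name from bacterial cold shock proteins, 4 of 8 were measured and 0 passed the unadjusted threshold. Carhsp1, a regulator of mRNA stability, differed by -0.44 ± 0.26 and Ybx3 by 0.29 ± 0.18. Ybx1, the abundant mRNA-packaging protein, stood at -0.05 ± 0.17, while both further probe sets were higher, and Csdc2 at -0.10 ± 0.44. The list's median was -0.07, between -0.25 and 0.07 over the settings tried.

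The hnRNP proteins, which package nuclear transcripts, had 10 members higher and 13 lower in value of 23, with a median of -0.03. At the unadjusted threshold 1 was lower, the splicing regulator Hnrnpl (-1.74 ± 0.74, adjusted p 0.606 in limma). It read 590.2, 592.1 and 600.6 on static 1, 2 and 3 and 25.6, 318.1 and 416.0 on rotated 1, 2 and 3, with rotated 1 far below the rest. The list's median was 0.10 with the values as deposited and 0.23 with median centring. Median centring moved the median over all genes from 0.03 to 0.13.

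SR splicing factors and the CLK kinases that phosphorylate them, which are known to respond to temperature, were measured for 15 of 16 genes, with 10 higher and 5 lower in value and a median of 0.07. At the unadjusted threshold 2 were lower, Srsf9 (-0.84 ± 0.21, adjusted p 0.571 in limma) and Srsf10 (-0.64 ± 0.25), a splicing repressor that heat shock activates; 1 of its 3 other probe sets went the other way. Srsf9 read 2799.9, 2734.9 and 2907.3 on static 1, 2 and 3 and 1189.1, 1789.6 and 1858.2 on rotated 1, 2 and 3, without overlap. With median centring 13 were higher and 2 lower in value, with a median of 0.28 and 0 of the 15 past the threshold, and with the values as deposited the median was 0.15.

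Reported regulators, partners and targets of the 2 proteins were measured for 13 of 14 genes, and 0 passed the unadjusted threshold (5 higher and 8 lower in value, median -0.10). Prmt1, the methyltransferase of arginines in the CIRBP tail, differed by -0.47 ± 0.28. Rpa2, a single-strand DNA-binding subunit gene whose mRNA CIRBP binds, differed by -0.29 ± 0.18, and Txn1, thioredoxin, by 0.25 ± 0.16. Csnk2a1, a catalytic subunit of casein kinase, stood at 0.26 ± 0.23, while 1 of the 4 further probe sets was lower. The sign of the list's median turned with median centring (0.04) and without rotated 1 (0.01), among other settings.

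The heat-induced chaperones were higher in value for all 14 of 14 genes, with a median of 0.56, and 6 were past the unadjusted threshold, all higher, against the 4.49% of all genes. Hsph1, a nucleotide exchange factor of HSP70, read 1268.3, 1161.1 and 1246.3 on static 1, 2 and 3 and 5420.5, 2940 and 2370.9 on rotated 1, 2 and 3. Its rotated values all lay above the static ones, and the difference was 1.39 ± 0.28 (adjusted p 0.487 in limma). The inducible HSP70 gene Hspa1a differed by 1.56 ± 0.36, the HSP70 relative Hspa4l by 1.06 ± 0.24 and the small heat shock protein gene Hspb1 by 0.96 ± 0.21. Rotated 1, the array with the lowest Cirbp value and the highest actin ratio, was the highest array for Hsph1 and Hspa1a. For Hspa4l rotated 2 was the highest (2084.3, against 1588.6 on rotated 1), and for Hspb1 rotated 1 was the lowest rotated array (2128.3, against 2930.1 and 2957.3). Without rotated 1 the median was 0.40 and 6 genes were past the unadjusted threshold, beside 265 of all 12554 genes higher at it. Without static 1 and rotated 1 together 13 of 14 were higher in value and 5 past the threshold, beside 369 of all genes. With the replicate number as a block the count was 10, beside 1033 of all genes. Most of these genes had been seen to stand higher in these data before the list was written, so it is no independent evidence. RefSeq's promoter table holds 17 promoters of 12 chaperone genes. The heat shock element was in 5 of the 17, against 0.603% of all promoters. The cold-responsive letters were in 6, against 5.38%, and the GC box in 16, against 35.7%. Some genes have more than 1 start, and counted by gene these 3 motifs were in 4, 5 and 11 of the 12. No link to Cirbp is read from these matches.

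Of the circadian clock genes, among which Clock mRNA is a reported target of CIRBP, 15 of 18 listed symbols were measured (Bmal1 is listed under both of its symbols), with 4 higher and 11 lower in value and a median of -0.11. At the unadjusted threshold 2 were lower, the clock repressor Cry2 (-1.05 ± 0.36, adjusted p 0.592 in limma) and Tef, a transcription factor of clock output (-0.55 ± 0.23, while 1 of the 2 further probe sets was higher). Nr1d1 stood at -0.66 ± 0.53 and Per3 at -0.39 ± 0.34. Clock itself stood at 0.15 ± 0.30. Without rotated 1, 0 of the 15 passed and the median was 0.03.

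**Figure D4:**
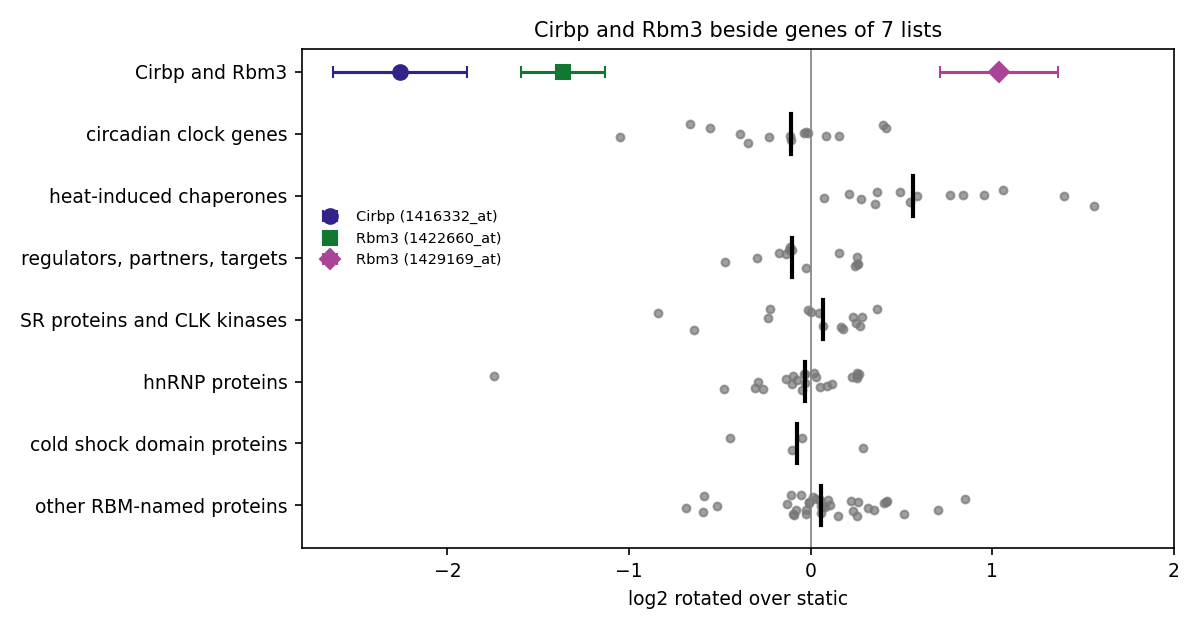
Log2 difference (rotated over static) of each measured gene in 7 lists (grey points, spread vertically for visibility; black bars are list medians) beside the 3 probe sets of Cirbp and Rbm3 (± SE). Chaperones lie to the right of 0 and no gene of the lists reaches the Cirbp value of -2.26; the lowest is Hnrnpl at -1.74.

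The genes whose values followed Cirbp most closely were named by Pearson correlation of normalized log2 values over the 6 arrays, among 12553 other genes. They were Prdx4, a peroxiredoxin of the endoplasmic reticulum (r = 0.993), the neurotrophin gene Bdnf (0.992), the leucine-rich repeat protein gene Islr (0.989), the respiratory complex subunit gene Ndufs3 (0.988) and the adaptor gene Grb14 (0.988). Their own differences ran from -2.65 (Islr) to -0.47 (Ndufs3). For the brighter Rbm3 probe set they were Gas6, a ligand of TAM receptors (r = 0.998), the scaffold gene Lin7c (0.996), the interferon receptor gene Ifngr1 (0.996), the glutamate transporter gene Slc1a3 (0.994) and Nenf (0.992), with differences from -1.41 (Slc1a3) to -0.69 (Nenf). A correlation above 0.95 was reached by 70 genes for Cirbp and 89 for Rbm3. Cirbp and Rbm3 themselves were left out of the candidates. The brighter Rbm3 probe set correlated with Cirbp at 0.979 and the dimmer one at -0.884. The 6 points share the split into 2 groups and the outlying rotated 1, so these correlations describe a shared pattern of values over these arrays and no more.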

How the data were processed

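Total RNA samples of 2T3 cells, 6 in all, were hybridised to 1-colour Affymetrix arrays, per the labels. Each deposited value is a linear intensity of 1 probe set on 1 array; the authors had scaled each array, since the mean after trimming 2% from each end was 500.0 on all 6. The summary software is not given in the sources used here, and detection calls were not used. Probe sets were named by the platform's probe table, updated through a RefSeq gene table of GRCm38.p6 (34945 with 1 symbol, 932 with several, 9160 with none).

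An offset of 16.6, the 20th percentile, was added before log2, and arrays were quantile normalized, since array medians (70.0 to 130.1) differed by 85.9%, above the tolerance of 10%. The 64 control probe sets and those with a mean below the 40th percentile (5.96) were left out, leaving 27022. The fit used limma 3.58.1 under R 4.3.3 (intensity trend, two-sided, Benjamini-Hochberg). It was also run on simulated data with independent normal noise on each array. That noise holds no outlying array and no shared deviation of arrays of the same number, so nothing is read from the run. A gene in a list is its brightest probe set, and the text names up to 4 genes of lowest p per list and the 5 most alike by correlation. Clock was named in addition. The number of arrays limits the precision. Members, lists and settings were chosen with earlier results of these data known.

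Same-numbered static and rotated arrays deviated together (r = 0.196, 0.313 and 0.334 over probe sets), so the replicate numbers may pair the samples, though no label explains the numbers. The main fit has no block. The values as deposited, median centring, smaller and larger offsets, other filters, no intensity trend, array weights, the block by replicate number, the mean of a gene's probe sets and leaving out each array were alternatives; leaving out static 1 and rotated 1 together was added after the data were seen.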

Additional observations from a re-analysis of the deposited data

How the results depend on the processing

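The direction of all 3 probe sets was kept under every alternative run. Because the groups did not overlap in any of them, leaving out or weighting arrays could not have changed a direction. Cirbp moved to -1.67 (log2) with array weights, 3.18-fold lower in place of 4.79-fold; these weights rest mostly on static 3 (3.32) and rotated 2 (2.55). It ran from -2.54 to -1.94 when each array was left out in turn. The mean over both Rbm3 probe sets was -0.16 against -1.36 for the brighter one, because the 2 differ in sign; its other alternatives ran from -1.53 to -1.02. Over all probe sets the count past an adjusted p of 0.05 in limma was 22 with array weights and 2 with the replicate block, against 0. The count at an unadjusted p under 0.05 was 1357 with median centring, 5148 with array weights and 3957 with the replicate block, against 2228, and 1091 (without rotated 1) to 3362 (without rotated 3) when each array was left out. The block leaves the differences of Cirbp (-2.26) and Rbm3 (-1.36) as they are. The cause of the moves in these counts was not tested. The median of the regulators, partners and targets list moved by more than its spread under 9 of 16 alternatives, and that of the chaperones under 0 of 16. Signals of Cirbp in the rotated samples are low, and its SE was the largest of the 3.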

Other observations

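Rbm3os, the gene annotated on the strand opposite Rbm3, has 1 probe set, which lay below the filter on dim signals and was not tested. It read 79.7, 44.5 and 44.5 on static 1, 2 and 3 and 8.7, 43.4 and 57.0 on rotated 1, 2 and 3, with overlapping groups. Rotated 1 was the lowest array, as it was for Cirbp and the brighter Rbm3 probe set.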
